A study of Mus musculus with 6 samples.

Results

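The genes described here carry glucose into the cell, break it down to pyruvate, and decide whether pyruvate leaves as lactate or enters the mitochondrion. They are 34 named rows of a count table with 23282 rows, chosen by name and function: 3 glucose transporters, 16 enzymes from hexokinase to pyruvate kinase, 2 regulators of phosphofructokinase, 2 lactate dehydrogenase chains, 2 lactate transporters, 4 pyruvate dehydrogenase kinases, 3 parts of the pyruvate dehydrogenase complex and 2 pyruvate carrier subunits. RNA came from mouse alveolar macrophages sorted as cells positive for SiglecF, F4/80, CD11c and CD45 and negative for CD11b. The tested mice were Sdha-flox LysM-Cre (Sdha-KO, 3 libraries), in which Cre expressed from the Lyz2 locus deletes floxed Sdha in myeloid cells, and the others were wildtype (WT, 3 libraries). The labels do not say whether WT mice carried Cre or floxed alleles, how many mice went into a library, or how old they were. A p-value here therefore reflects library-to-library spread alone, some of which may be technical. Each of 3 batches held 1 library of each genotype.

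Glycolysis turns a molecule of glucose into pyruvate in the cytosol and yields ATP and NADH without oxygen. Lactate dehydrogenase regenerates NAD+ by reducing pyruvate to lactate, which monocarboxylate transporters export. Alternatively the mitochondrial pyruvate carrier imports pyruvate and the pyruvate dehydrogenase complex converts it to acetyl-CoA for the tricarboxylic acid (TCA) cycle, unless pyruvate dehydrogenase kinases switch the complex off. Sdha encodes the catalytic subunit of succinate dehydrogenase, a TCA cycle enzyme that is also complex II of the respiratory chain. Many glycolytic genes are known targets of hypoxia-inducible factor, whose degradation depends on enzymes that succinate can inhibit.

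Libraries held 5400160 to 8472907 counts, and levels are given as CPM, counts scaled to a common library size and composition. The targeted gene Sdha was at 26.1, 21 and 22.8 CPM in Sdha-KO libraries and 56.0, 65.5 and 72.2 CPM in WT libraries (log2 fold change -1.47, SE 0.818, edgeR adjusted p = 1). In batches 2 and 3 alone Sdha had a log2 fold change of -1.64 (adjusted p = 0.194, or 0.0327 when blocked by replicate). Both batch 1 libraries stood apart: 5438 genes had a count in Sdha-KO replicate 1 and 7893 in WT replicate 1, against 11383 to 13050 in the others. The batch 1 totals were nonetheless the highest, at 8472907 counts in Sdha-KO replicate 1 and 8239600 in WT replicate 1. Of the 34 genes, 16 had no count in Sdha-KO replicate 1 and 10 had none in WT replicate 1, against 2 to 4 in each other library. Of the 28 genes abundant enough to be tested, 42.9% were at 0 in Sdha-KO replicate 1 and 17.9% in WT replicate 1. Of all tested genes, 48.9% were at 0 in Sdha-KO replicate 1 and 26.4% in WT replicate 1. Where a library has no count, a true level of up to 3 counts (0.25 to 0.666 CPM across libraries) remains possible from counting error alone. Pdha1, Pdhb and Slc16a3 had no count in Sdha-KO replicate 1 but 23.8 to 53.0 CPM in Sdha-KO replicates 2 and 3. That bound may be too narrow for Sdha-KO replicate 1, and the cause of its zeros was not tested. The sorted identity was checked with 13 alveolar macrophage markers, whose summed level was 6416 to 7862 CPM in Sdha-KO and 7576 to 8903 CPM in WT libraries, most of it Chil3. Single markers shifted under that sum: in 5 of the 13 (Siglecf, Ear1, Ear2, Krt79 and Cidec) all Sdha-KO libraries lay below all WT libraries, and in 1 (Car4) above. Ear1, a ribonuclease gene, was at 145, 139 and 112 CPM in Sdha-KO and 585, 575 and 739 CPM in WT libraries. It was the 1 marker that passed edgeR's test over 6 libraries. With the replicate block, with a stricter filter or without WT replicate 1 no gene passed, Ear1 included. Siglecf, the gene of a sorting marker, was at 0, 39.6 and 45.3 CPM in Sdha-KO and 103, 138 and 132 CPM in WT libraries. The part of these shifts in the results below was not tested.

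Sdha-KO macrophages had higher values than WT macrophages for most enzymes between glucose phosphate isomerase and lactate dehydrogenase, although no single gene passed the test over all 6 libraries. Among the 28 tested genes the fitted fold was largest for Pgam1, Pdk2 and Slc2a1. These are bulk libraries, in which fewer cells of a type and less RNA per cell cannot be told apart. In 10 of the 28 tested genes, all 3 Sdha-KO libraries lay above all 3 WT libraries (Slc2a1, Gpi1, Pfkl, Aldoc, Tpi1, Pgk1, Pgam1, Pkm, Ldha and Pdk2). This is 35.7% of them, against 5.04% of the 9963 tested genes. In 1 gene, Dlat, all Sdha-KO libraries lay below, against 9.27% of tested genes. Within batches, 14 genes were higher in Sdha-KO in 3 of 3 batches, against 11.4% of tested genes, and 3 (Pfkfb4, Slc16a1 and Dlat) were lower in 3 of 3, against 19.9%. In batches 2 and 3 alone, both Sdha-KO libraries lay above both WT libraries in 17 genes, against 20.6% of tested genes, and below in 3 (Pfkfb4, Dlat and Mpc2), against 23.7%.

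No gene of the 28 passed edgeR's quasi-likelihood test across all genes at a Benjamini-Hochberg adjusted p under 0.05, where 0.0401% of tested genes passed as higher and 0.01% as lower. At an unadjusted p under 0.05 there were 4 (Pfkl, Pgam1, Pkm and Ldha), all higher, against 1.36% of tested genes, and 0 were lower, against 1.28%. DESeq2 passed 0 of the 34 genes, against 0.052% of its 15381 genes as higher and 0.137% as lower. Pfkm, Eno1, Eno2, Ldhb and Pdk4 had no adjusted p there and so could not pass. DESeq2 had 4 higher at an unadjusted p under 0.05 (Slc2a1, Pfkl, Pgk1 and Pgam1), against 1.05%, and 0 lower, against 2%. Limma-voom passed 0 of 28, against 0.141% as higher and 0.0602% as lower, and had 4 higher at an unadjusted p under 0.05 (Aldoa, Pgam1, Pkm and Ldha), against 1.96%, and 0 lower, against 6.67%. Blocked by replicate number, edgeR passed 0 of 28 and had the same 4 genes as limma-voom at an unadjusted p under 0.05, all higher, against 1.55% of tested genes as higher and 1.43% as lower. Without both batch 1 libraries, Pgam1 passed (edgeR adjusted p = 0.0266), against 0.139% of tested genes passing as higher and 0.112% as lower. In that fit 9 of 29 were higher at an unadjusted p under 0.05, against 5.29%, and 0 were lower, against 4.93%. When the block was added to that fit, 7 of 29 passed, all higher (Slc2a1, Gpi1, Pfkl, Aldoa, Pgam1, Pkm and Ldha), against 1.65% of tested genes as higher and 1.36% as lower, in a fit with 1 residual degree of freedom. At an unadjusted p under 0.05 it had 10 higher, against 5.8%, and 0 lower, against 5.93%. Sex-linked transcripts also moved with genotype in the 4 libraries of batches 2 and 3, so genotype and sex cannot be told apart there. Xist, expressed in females, had 2683, 498 and 822 counts in Sdha-KO and 0, 4608 and 6055 counts in WT libraries. Ddx3y, on chromosome Y, had 0, 354 and 432 counts in Sdha-KO and 222, 0 and 143 counts in WT libraries. Batch 1 ran the opposite way to the others, and Sdha-KO replicates 2 and 3 and WT replicate 3 held counts of both genes.

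**Figure D1:**
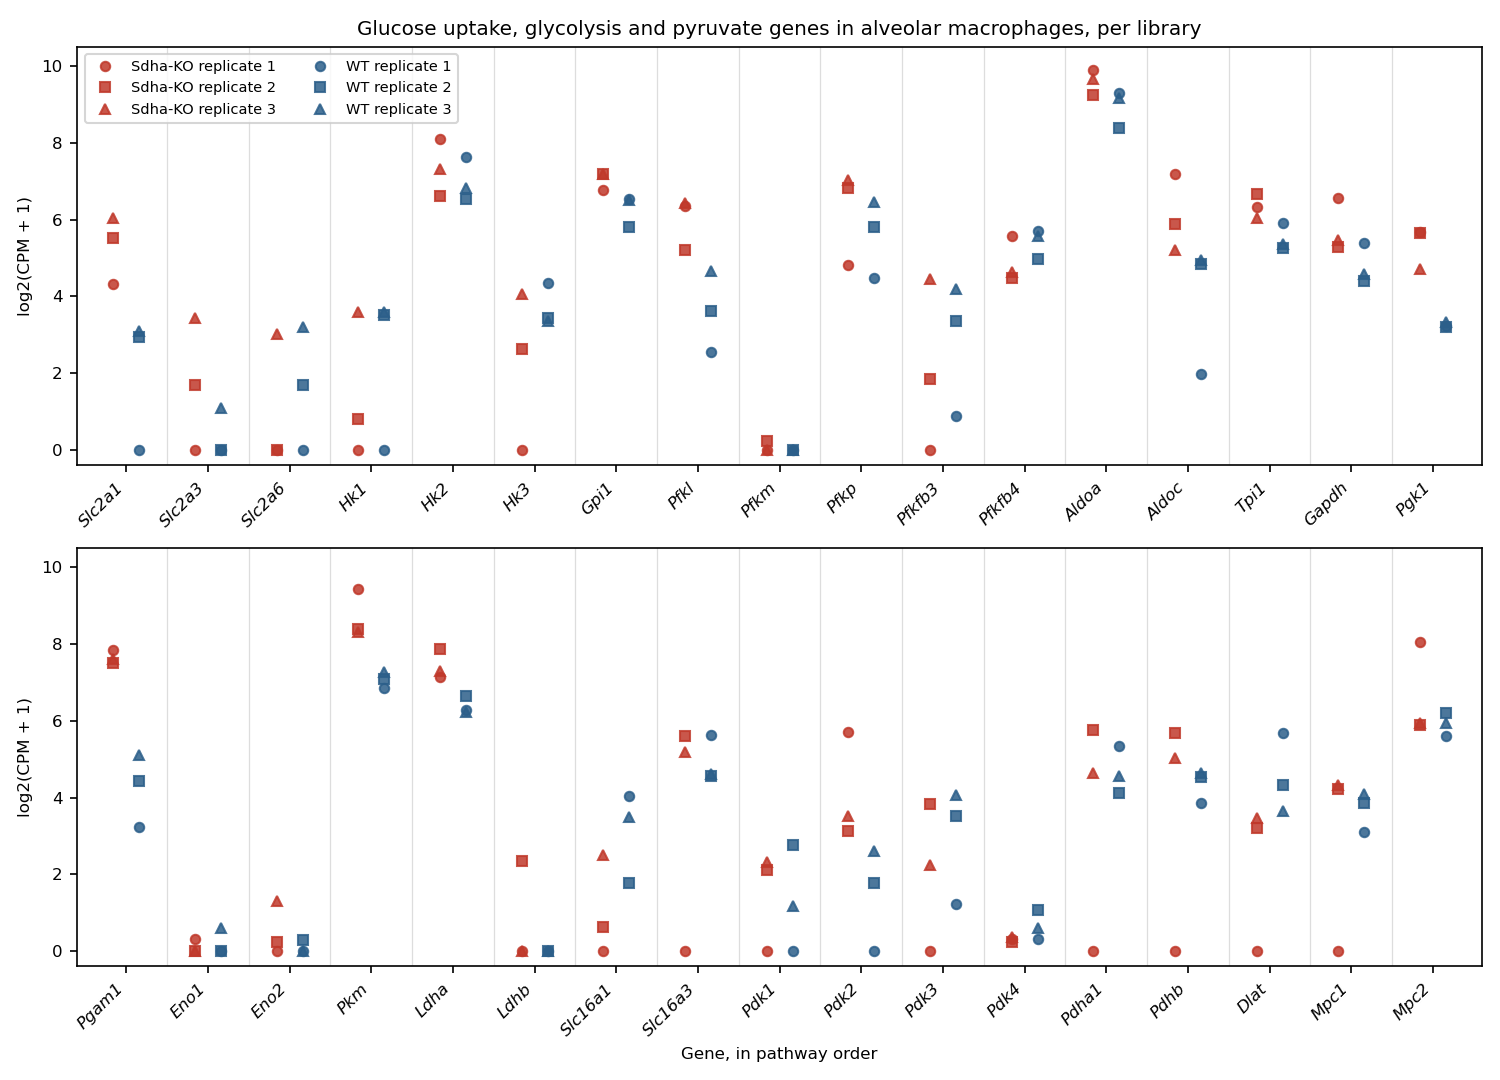
Level of each of the 34 genes in each library, as log2(CPM + 1), in pathway order from glucose uptake to the pyruvate carrier. Sdha-KO libraries are red and WT libraries blue, and marker shapes give the replicate number. Pgam1, Pgk1, Pkm and Ldha show 3 red points above 3 blue points, while many points at 0 belong to replicate 1 libraries.

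Of the 34 genes, 6 were too low to be tested, and their values are given as counts or CPM alone. Slc2a3, a high-affinity glucose transporter, had 0, 12 and 66 counts in Sdha-KO and 0, 0 and 9 counts in WT libraries. Pfkm, the muscle phosphofructokinase, had a single count in 1 library, and Ldhb, the heart-type lactate dehydrogenase chain, had 22 counts in Sdha-KO replicate 2 and none elsewhere. Pdk4, a pyruvate dehydrogenase kinase induced by fasting in other tissues, had 1 to 3 counts in Sdha-KO and 2 to 5 counts in WT libraries. Eno2, the neuronal enolase, reached 10 counts in Sdha-KO replicate 3 and at most 1 elsewhere. Eno1, the enolase of most tissues, had 3, 0 and 0 counts in Sdha-KO and 0, 0 and 4 counts in WT libraries.

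Among the uptake genes, Slc2a1 encodes the transporter GLUT1 and supplied 79.3% or more of the counts of the 3 transporters in each Sdha-KO library, against 75% in WT replicate 2 and 45.1% in WT replicate 3, while WT replicate 1 had no count for any of them. Slc2a1 (chromosome 4, 119108711 to 119137983, mm10, plus strand) was at 19.2, 44.8 and 65.3 CPM in Sdha-KO libraries, against 0, 6.66 and 7.64 CPM in WT libraries. All Sdha-KO libraries were higher, but the lowest of each genotype came from batch 1. The fitted difference was 9.03-fold (log2 fold change 3.17, SE 1.87, edgeR adjusted p = 1), and without both batch 1 libraries 7.73-fold (log2 fold change 2.95, SE 0.48, adjusted p = 0.071, or 0.00223 when blocked by replicate). Exons of Slc2a1 overlap Gm12868 on the other strand, and since the use of strand in counting is not given, its count is uncertain to that extent. Slc2a6, a transporter of lysosomal membranes, was at 0, 0 and 7.15 CPM in Sdha-KO and 0, 2.22 and 8.15 CPM in WT libraries, with no separation between genotypes.

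Hexokinase, which traps glucose in the cell as glucose 6-phosphate, came mostly from Hk2. Hk2 was at 275, 97.6 and 158 CPM in Sdha-KO libraries and 197, 92.8 and 112 CPM in WT libraries. Sdha-KO was higher within each batch, but the genotypes overlapped, also in batches 2 and 3 alone, where Sdha-KO replicate 2 lay below WT replicate 3 (log2 fold change 0.40, SE 0.485, edgeR adjusted p = 1, and -0.07 without Sdha-KO replicate 1). Hk2 held 93.3% ± 7.27 of the hexokinase counts in Sdha-KO and 85.9% ± 4.60 in WT libraries (SD, n = 3 each). Hk1, the hexokinase of most tissues, was at 0, 0.744 and 11.0 CPM in Sdha-KO and 0, 10.4 and 11.1 CPM in WT libraries. Hk3, which is typical of myeloid cells, was at 0, 5.21 and 15.6 CPM in Sdha-KO and 19.4, 9.76 and 9.29 CPM in WT libraries. Neither minor hexokinase separated the genotypes. Exons of Hk1, Hk3 and Pfkp overlap Hk1os, Unc5a and Pitrm1 on the other strand.

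Gpi1, which isomerises glucose 6-phosphate to fructose 6-phosphate, was at 108, 144 and 146 CPM in Sdha-KO and 91.8, 55.3 and 90.5 CPM in WT libraries. The groups did not overlap, and the difference was 1.68-fold (log2 fold change 0.74, SE 0.459, edgeR adjusted p = 1). In batches 2 and 3 alone it was 2.00-fold (edgeR adjusted p = 0.36, or 0.0487 when blocked by replicate). Exons of Gpi1 overlap Gm26762 on the other strand.

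Phosphofructokinase, the committed step of glycolysis, was made from Pfkp and Pfkl. Pfkl, the liver-type chain, was at 81.1, 36.1 and 85.7 CPM in Sdha-KO libraries and 4.90, 11.3 and 24.4 CPM in WT libraries. All Sdha-KO libraries were above all WT libraries, by 4.98-fold in the fit (log2 fold change 2.32, SE 1.01, edgeR adjusted p = 1) and by 3.41-fold without both batch 1 libraries (adjusted p = 0.375, or 0.0367 when blocked by replicate). Pfkp, the platelet-type chain, was at 27.1, 112 and 130 CPM in Sdha-KO and 21.2, 55.5 and 87.0 CPM in WT libraries. It was higher in Sdha-KO in 3 of 3 batches, but the genotypes overlapped (log2 fold change 0.72, SE 0.729, edgeR adjusted p = 1). Pfkl made up 74.9%, 24.4% and 39.7% of phosphofructokinase counts in Sdha-KO and 18.8%, 16.9% and 21.9% in WT libraries, so its share was higher in each Sdha-KO library, with no test made of shares.

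The 2 regulators make and remove fructose 2,6-bisphosphate, an activator of phosphofructokinase. Pfkfb4 was at 46.3, 21.4 and 23.7 CPM in Sdha-KO and 50.9, 30.2 and 46.6 CPM in WT libraries. It was lower in Sdha-KO in 3 of 3 batches, with overlapping genotypes and a small fitted difference (log2 fold change -0.48, SE 0.982, edgeR adjusted p = 1). Pfkfb3, the strongly kinase-active form, was at 0, 2.60 and 21 CPM in Sdha-KO and 0.858, 9.32 and 17.3 CPM in WT libraries, and its direction differed between batches.

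Aldolase, which splits fructose 1,6-bisphosphate, had more counts than any other step in each of the 6 libraries. Aldoa was at 956, 613 and 816 CPM in Sdha-KO libraries and 627, 337 and 578 CPM in WT libraries. It was higher in Sdha-KO in 3 of 3 batches, although Sdha-KO replicate 2 lay just under WT replicate 1 (log2 fold change 0.63, SE 0.326, edgeR adjusted p = 1). In batches 2 and 3 alone its adjusted p was 0.509, or 0.0425 when blocked by replicate. Aldoc, the brain-type form, was at 146, 58.6 and 36.2 CPM in Sdha-KO and 2.94, 28.0 and 29.8 CPM in WT libraries. Its groups did not overlap, but the size of the difference rested on batch 1: the fold was 3.97 with 6 libraries (log2 fold change 1.99, SE 0.978, edgeR adjusted p = 1) and 1.65 without both batch 1 libraries. Tpi1, which interconverts the triose phosphates that aldolase releases, was at 80.1, 100 and 65.1 CPM in Sdha-KO and 59.2, 37.7 and 40.5 CPM in WT libraries, with no overlap (1.78-fold, log2 fold change 0.84, SE 0.602, edgeR adjusted p = 1). Exons of Aldoa and Tpi1 overlap Fam57b and Spsb2 on the other strand.

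**Figure D2:**
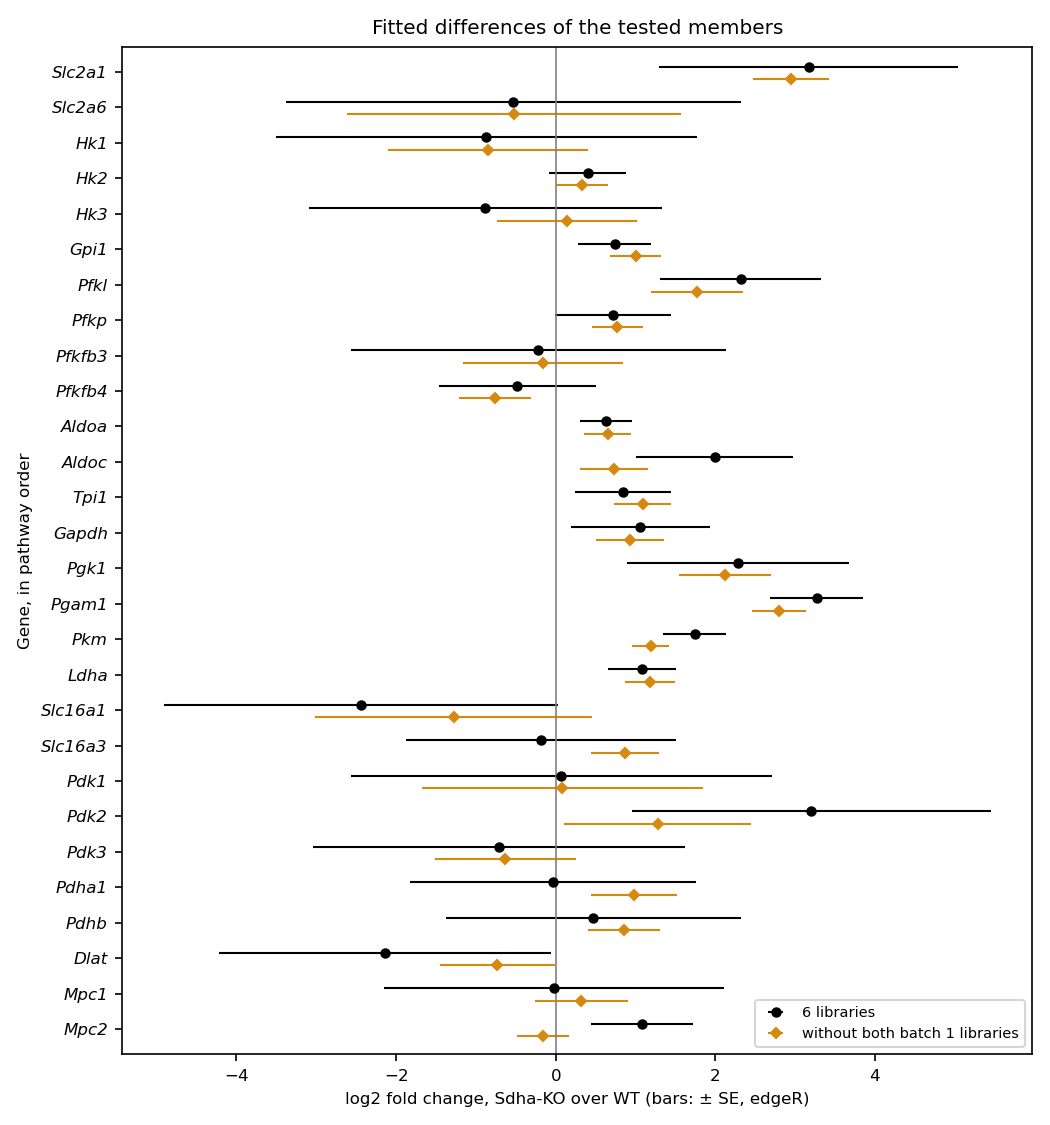
Fitted log2 fold change of Sdha-KO over WT with its SE for the 28 tested genes in pathway order, with all 6 libraries (black) and without both batch 1 libraries (orange). Genes from Gpi1 to Ldha, other than the regulators Pfkfb3 and Pfkfb4, sit to the right of 0 in both fits. With 6 libraries the intervals of lactate transporters, kinases and pyruvate dehydrogenase parts are wide and mostly span 0. Without both batch 1 libraries those of Slc16a3, Pdha1, Pdhb and Pdk2 lie to the right of 0. That of Dlat then lies just to the left.

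Gapdh, which makes the NADH that lactate dehydrogenase uses, was at 94.2, 37.9 and 43.2 CPM in Sdha-KO and 40.9, 20.2 and 22.8 CPM in WT libraries. It was higher in Sdha-KO in 3 of 3 batches, but Sdha-KO replicate 2 lay below WT replicate 1 (log2 fold change 1.06, SE 0.874, edgeR adjusted p = 1). Gapdh has many processed copies in the mouse genome: of all stretches of 50 bases in the last 300 bases of its GENCODE transcripts, 78.3% also occur in another gene, so its count is uncertain, and its exons overlap Iffo1 on the other strand.

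Pgk1 and Pgam1 encode the next enzymes of the pathway, and neither overlapped between genotypes. Pgk1, which makes the first ATP of glycolysis and lies on chromosome X (106187100 to 106203699, plus strand), was at 50.7, 49.8 and 25.3 CPM in Sdha-KO libraries and 8.46, 8.21 and 9.17 CPM in WT libraries. The WT libraries were nearly level and each Sdha-KO library was well above them (4.86-fold, log2 fold change 2.28, SE 1.39, edgeR adjusted p = 1). Without both batch 1 libraries the fold was 4.35 (adjusted p = 0.271). Pgam1, the mutase that moves the phosphate of 3-phosphoglycerate (chromosome 19, 41911923 to 41918660, plus strand), was at 229, 181 and 195 CPM in Sdha-KO libraries and 8.33, 20.6 and 33.5 CPM in WT libraries. Its lowest Sdha-KO library was far above its highest WT library, a gap wider than the spread within either genotype. The fitted difference was 9.68-fold (log2 fold change 3.27, SE 0.58), with an edgeR adjusted p of 0.103, the smallest among the 28 genes. Without both batch 1 libraries the difference was 6.97-fold (log2 fold change 2.80, SE 0.336). Over 6 libraries the adjusted p was 0.666 with the replicate block, 0.268 in DESeq2 and 0.28 in limma-voom. None of the 50-base stretches at the transcript ends of Pgk1 or Pgam1 occurs in another GENCODE gene.

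Enolase, which makes phosphoenolpyruvate, could not be read from the Eno1 row. The table has 2 rows named Eno1b, the symbol of a retrogene copy of Eno1 on chromosome 18, and RefSeq lists Eno1 as an older name of Eno1b. Those rows had 623, 414 and 378 counts and 441, 351 and 370 counts in Sdha-KO libraries, against 94, 82 and 197 counts and 61, 81 and 177 counts in WT libraries. In both rows all Sdha-KO libraries were above all WT libraries, at 61.8 ± 13.4 and 52.4 ± 14.4 CPM in Sdha-KO and 18.3 ± 6.78 and 16.0 ± 7.72 CPM in WT libraries (SD, n = 3 each). Of the 50-base stretches at the ends of Eno1 transcripts, 86.9% occur in another gene, Eno1b first among them, so these reads cannot be assigned between the copies. Summed with the Eno1 row into a single feature, a choice made after seeing the near-empty row, the log2 fold change was 1.73 (SE 0.593, edgeR adjusted p = 1). In batches 2 and 3 alone both Eno1b rows had an adjusted p of 0.25, and when blocked by replicate 0.0458 and 0.0617.

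Pkm, the pyruvate kinase of macrophages, was at 693, 337 and 315 CPM in Sdha-KO libraries and 115, 136 and 153 CPM in WT libraries. The groups did not overlap, and Sdha-KO replicate 1 was the highest library. The difference was 3.33-fold with 6 libraries (log2 fold change 1.74, SE 0.393, edgeR adjusted p = 0.404) and 2.28-fold in batches 2 and 3 alone (adjusted p = 0.141, or 0.00258 when blocked by replicate). Exons of Pkm overlap Gm49759 on the same strand, and 20.7% of its end stretches occur in other genes. The table has 1 row for Pkm, so the splice forms M1 and M2 are not resolved.

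Lactate dehydrogenase came almost entirely from Ldha. Ldha was at 141, 232 and 156 CPM in Sdha-KO libraries and 76.7, 98.8 and 74.4 CPM in WT libraries. No library of either genotype crossed over, and the fold was 2.12 (log2 fold change 1.08, SE 0.423, edgeR adjusted p = 1) with 6 libraries and 2.26 in batches 2 and 3 alone (adjusted p = 0.269, or 0.00974 when blocked by replicate). Of its end stretches, 20.5% occur in other genes, Ldha-ps2 first among them.

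Regulatory sequence is shown for Pgam1, Pgk1 and Ldha, only some of the genes whose Sdha-KO libraries all lay above all WT libraries. It is also shown for Dlat, the gene with the opposite order. Each sequence is the 250 bases before a RefSeq transcript start (GRCm38.p6), written 5′ to 3′ on the gene's strand, and capitals mark ACGTG or GCGTG, the core of the hypoxia response element, on either strand.
Pgam1 (chr19:41911621-41911870, plus strand): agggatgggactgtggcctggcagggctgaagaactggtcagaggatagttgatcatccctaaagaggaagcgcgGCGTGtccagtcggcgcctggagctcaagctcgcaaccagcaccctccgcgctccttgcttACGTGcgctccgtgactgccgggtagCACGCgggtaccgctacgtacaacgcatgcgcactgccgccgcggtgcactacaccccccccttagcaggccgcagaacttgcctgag
Pgk1 (chrX:106186850-106187099, plus strand): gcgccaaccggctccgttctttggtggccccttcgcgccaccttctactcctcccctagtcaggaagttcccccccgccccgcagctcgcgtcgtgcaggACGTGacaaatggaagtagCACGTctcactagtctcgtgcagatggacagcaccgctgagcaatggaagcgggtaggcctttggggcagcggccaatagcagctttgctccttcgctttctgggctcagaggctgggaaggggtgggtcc
Ldha (chr7:46845554-46845803, plus strand): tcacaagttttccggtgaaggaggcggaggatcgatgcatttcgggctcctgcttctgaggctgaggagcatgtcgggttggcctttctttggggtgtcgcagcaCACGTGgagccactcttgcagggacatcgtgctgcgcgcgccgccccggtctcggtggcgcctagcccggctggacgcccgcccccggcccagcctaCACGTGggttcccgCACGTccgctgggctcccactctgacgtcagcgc
Dlat (chr9:50659781-50660030, minus strand): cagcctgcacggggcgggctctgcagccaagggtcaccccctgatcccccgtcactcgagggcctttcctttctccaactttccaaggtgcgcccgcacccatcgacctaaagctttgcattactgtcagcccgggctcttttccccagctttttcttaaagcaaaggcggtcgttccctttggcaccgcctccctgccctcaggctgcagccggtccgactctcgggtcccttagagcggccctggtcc

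Pgam1 held ACGTG 1 time and GCGTG 2 times, Pgk1 held ACGTG 2 times, and Ldha held ACGTG 5 times, of which 4 lie in 2 CACGTG palindromes read on both strands. The Dlat window held neither motif. Among the 33 of 34 genes with a RefSeq promoter, using the first start listed, ACGTG was in 39.4% and GCGTG in 54.5% of these windows, against 16.6% and 28.2% of 27025 promoters of the same length. The E-box CACGTG, which contains ACGTG, was in 12.1% against 6.05%, and the GC box GGGCGG in 60.6% against 32.9%. These promoters were also richer in G and C, with a median of 62.4% against 52.0%, and the part of base composition in the motif shares was not tested. Genes whose genotypes did not overlap included some with neither hypoxia core, such as Gpi1, Tpi1 and Pkm. The other genes lower in Sdha-KO in 3 of 3 batches did hold a core. Slc16a1 held ACGTG 2 times and GCGTG 2 times, and Pfkfb4 held GCGTG 1 time.

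**Figure D3:**
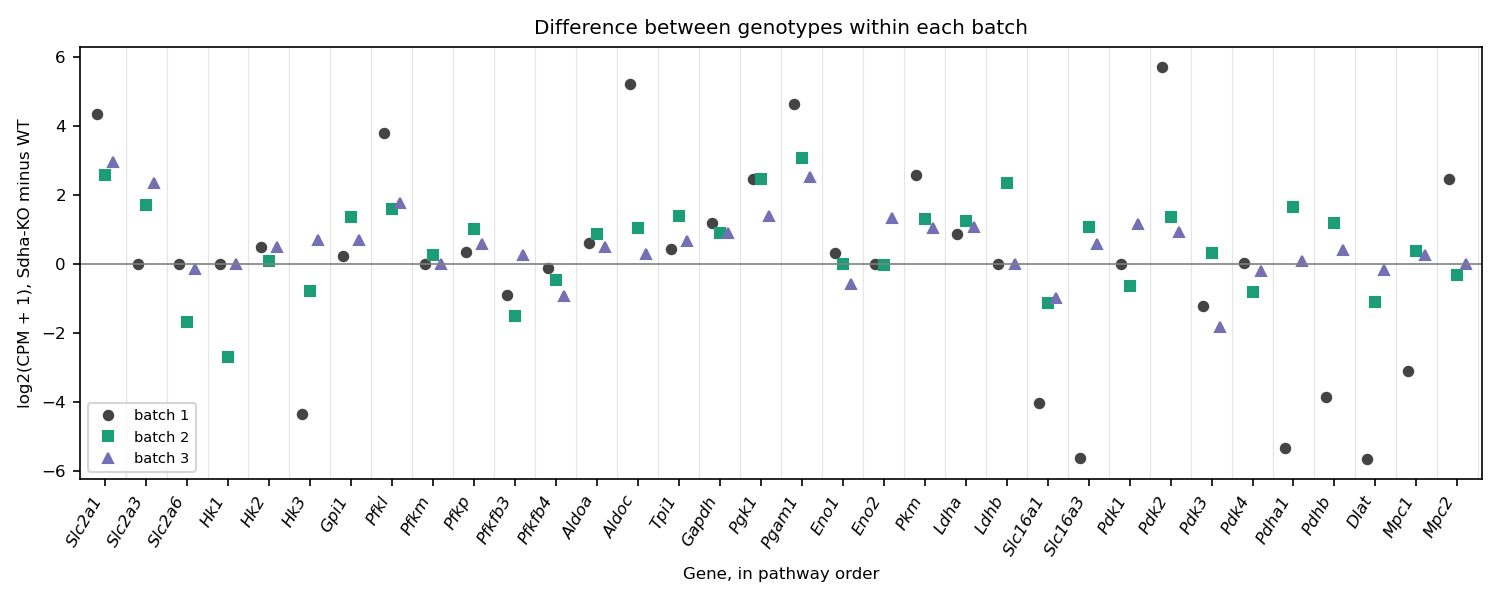
Difference of log2(CPM + 1), Sdha-KO minus WT, within each batch for the 34 genes in pathway order. From Gpi1 to Ldha most genes have 3 points above 0, while Slc16a3, Pdha1, Pdhb and Mpc1 are above 0 in batches 2 and 3 and far below 0 in batch 1.

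Genes that carry lactate out of the cell did not separate the genotypes. Slc16a3, which encodes the exporter MCT4, was at 0, 48.0 and 35.3 CPM in Sdha-KO and 48.2, 22.6 and 23.4 CPM in WT libraries. It was higher in Sdha-KO in batches 2 and 3 and had no count in Sdha-KO replicate 1, so the sign of its difference turned with the batch 1 libraries (log2 fold change -0.18 with 6 libraries, SE 1.69, edgeR adjusted p = 1, and 0.87 without both of them). Slc16a1, which encodes the transporter MCT1, was at 0, 0.558 and 4.62 CPM in Sdha-KO and 15.4, 2.44 and 10.3 CPM in WT libraries. It was lower in Sdha-KO in 3 of 3 batches, with overlapping genotypes (log2 fold change -2.44, SE 2.47, edgeR adjusted p = 1).

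Pyruvate dehydrogenase kinases phosphorylate and switch off the complex. Pdk2 was at 51.4, 7.81 and 10.4 CPM in Sdha-KO and 0, 2.44 and 5.09 CPM in WT libraries. The groups did not overlap, but the fold fell to 2.43 without both batch 1 libraries, against 9.20 with 6 libraries (log2 fold change 3.20, SE 2.25, edgeR adjusted p = 1). Pdk3, on chromosome X, was at 0, 13.2 and 3.73 CPM in Sdha-KO and 1.35, 10.4 and 15.9 CPM in WT libraries, and Pdk1, a classic hypoxia-induced gene, stayed at or below 5.77 CPM in every library. Pdk2 supplied 99.5%, 31.8% and 56.5% of the kinase counts in Sdha-KO and 0%, 12.4% and 22.3% in WT libraries, a higher share in each Sdha-KO library, on low counts.

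**Figure D4:**
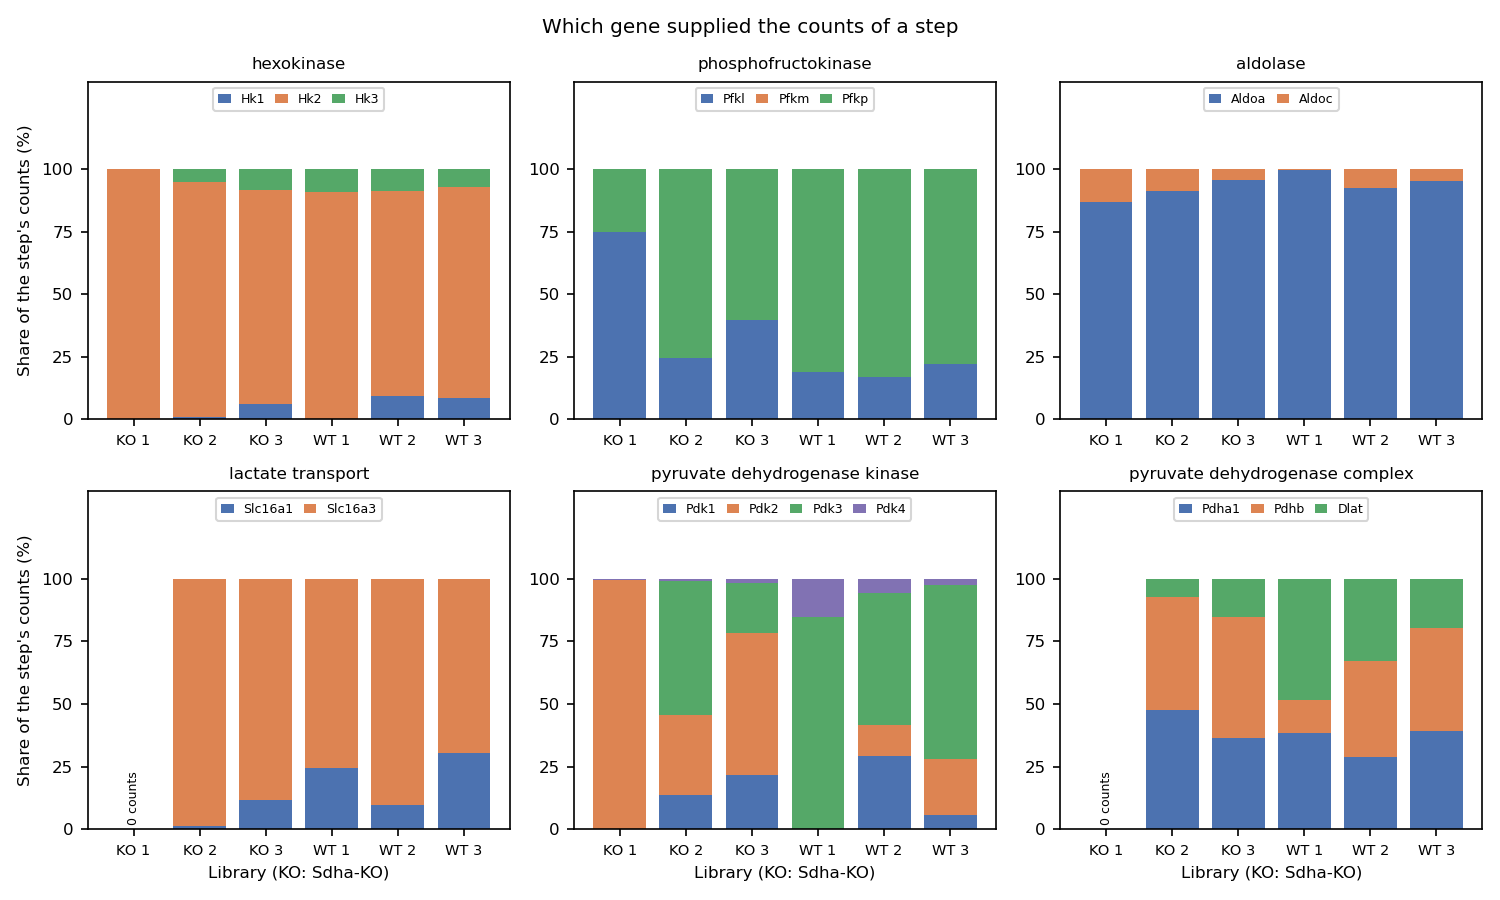
Share of the counts of a step that each of its genes supplied, in percent, for each library (KO: Sdha-KO). Hk2 and Aldoa dominate in all libraries, the Pfkl and Pdk2 shares are higher in Sdha-KO, and Sdha-KO replicate 1 has 0 counts for lactate transporters and for the pyruvate dehydrogenase complex.

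The pyruvate dehydrogenase complex joins an E1 part (Pdha1 and Pdhb) with the acetyltransferase E2 (Dlat). Pdha1, on chromosome X, was at 0, 53.0 and 23.8 CPM in Sdha-KO and 39.3, 16.4 and 22.7 CPM in WT libraries, and Pdhb was at 0, 50.6 and 31.9 CPM in Sdha-KO and 13.6, 22.0 and 23.8 CPM in WT libraries. Both were higher in Sdha-KO in batches 2 and 3 and had no count in Sdha-KO replicate 1 (log2 fold changes -0.03, SE 1.79, and 0.47, SE 1.85, edgeR adjusted p = 1 for both). The sign was not stable for either: with the replicate block over 6 libraries Pdhb was at -0.77 and Pdha1 at -0.81, and in batches 2 and 3 alone they were at 0.86 and 0.98. Exons of Pdha1 overlap Map3k15 on the other strand, and 21.1% of its end stretches occur in that gene. Dlat was at 0, 8.18 and 9.99 CPM in Sdha-KO and 49.9, 18.9 and 11.5 CPM in WT libraries. All Sdha-KO libraries were lower, although the closest pair was 9.99 and 11.5 CPM, and without both batch 1 libraries the fold was 1.65, against 4.41 with 6 libraries (log2 fold change -2.14, SE 2.08, edgeR adjusted p = 1).

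The carrier that imports pyruvate is a pair of Mpc1 and Mpc2. Mpc2 was at 265, 58.2 and 60.7 CPM in Sdha-KO and 47.2, 73.2 and 61.0 CPM in WT libraries. Only Sdha-KO replicate 1 was high, and the log2 fold change was 1.08 with 6 libraries (SE 0.64, edgeR adjusted p = 1) and -0.16 without both batch 1 libraries. Mpc1 was at 0, 17.7 and 19.1 CPM in Sdha-KO and 7.60, 13.5 and 16.0 CPM in WT libraries, and 47.5% of its end stretches occur in other genes. Neither subunit separated the genotypes.

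By role, 11 of the 13 tested enzymes from hexokinase to pyruvate kinase had a positive log2 fold change, with a median of 0.84 (12 of 13 and 0.93 without both batch 1 libraries). Of the 8 tested kinase, complex and carrier genes, 4 were positive, with a median of 0.03 (5 of 8 and 0.20). Over all 28 tested genes 17 were positive with a median of 0.55, against 45% positive and a median of -0.13 for all tested genes. Whether the enzyme group differs from the mitochondrial entry group was not tested.

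Neighbouring pathways were read from gene lists chosen by function. None of their tested genes passed in either direction: 0 of 12 other glycolysis and glucose uptake genes, 0 of 12 other lactate and pyruvate genes, 0 of 10 pentose phosphate genes, 0 of 9 glycogen and gluconeogenesis genes and 0 of 10 NADH shuttle genes (edgeR). Their median log2 fold changes were -0.30, -0.05, -0.22, 0.17 and 0.34. At an unadjusted p under 0.05 there was 1 of their 53 tested genes (1.89%), lower in Sdha-KO, close to the 1.28% of all tested genes. It was Slc2a9, a urate and hexose transporter, at 0, 0.372 and 0 CPM in Sdha-KO and 30.4, 3.33 and 3.56 CPM in WT libraries. In the order of the lists, all Sdha-KO libraries lay above all WT libraries in 0, 1, 0, 1 and 2 genes. They lay below in 1, 1, 0, 1 and 1 genes, against 5.04% above and 9.27% below among all tested genes. The lactate and pyruvate gene above was Bsg, the chaperone of the lactate transporters. It was at 74.2, 31.4 and 40.7 CPM in Sdha-KO and 5.15, 28.8 and 26.5 CPM in WT libraries (edgeR adjusted p = 1).

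Markers of other cells that a sort could hold were summed beside these results. Monocyte and interstitial macrophage markers (9 genes) summed to 79.5 to 208 CPM in Sdha-KO and 20.6 to 53.5 CPM in WT libraries, with Folr2 at 0 throughout. These sums did not overlap between genotypes. Ccr2, one of these markers, was at 79.0, 27.7 and 68.1 CPM in Sdha-KO and 5.39, 13.1 and 21.5 CPM in WT libraries. It made up nearly all of the sum in Sdha-KO replicate 1. Conventional dendritic cell markers (9 genes) summed to 5.17 to 202 CPM in Sdha-KO and 20.0 to 39.9 CPM in WT libraries. Neutrophil markers (6 genes in the table) summed to 79.9 to 169 CPM in Sdha-KO and 55.5 to 92.3 CPM in WT libraries. The part of these cells in the differences above was not tested. The eosinophil granule genes Epx, Prg2 and Prg3 had no count in any library, and dendritic cell, neutrophil, epithelial, erythroid and lymphocyte sums overlapped between genotypes.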

How the data were processed

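RNA of sorted alveolar macrophages was sequenced in 3 Sdha-KO and 3 WT libraries with a QuantSeq 3' kit, per the labels' protocols, so counts do not scale with transcript length. The deposited table holds raw counts per gene symbol. Bowtie2, bedtools and mm10 are named in the submitters' processing notes. For versions, annotation, strand use and reads with several matches, the sources used here give nothing, and no molecular identifiers are mentioned.

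Genotypes were compared with edgeR 4.0.16 in R 4.3.3 (quasi-likelihood F-test with robust fitting, TMM scaling, filterByExpr at a minimum count of 10, genotype as the only term), adjusted over all 9963 tested genes by Benjamini-Hochberg at 0.05. The biological coefficient of variation was 1.4, and 0.677 without both batch 1 libraries. CPM were scaled by TMM factors. SE is the log2 fold change over the square root of F. The script was run on simulated data with less spread than the 6 libraries and without the zeros of batch 1. That run therefore does not show how the fit performs on data like these. DESeq2 1.42.0, limma 3.58.1 (voom) and other settings were alternatives.

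The labels repeat each replicate number as a batch, so numbers pair the samples. Deviations from group means correlated at 0.155, 0.117 and 0.126 for same-numbered libraries, and at -0.152 to 0.111 for different-numbered ones. Between batches 2 and 3 the different-numbered pairs were at 0.111 and 0.0568, so pairing stood out little there. The blocked value is given where it changes a call among the 34 genes, Sdha and the Eno1b rows, which happened only in batches 2 and 3 alone. That fit had 1 residual degree of freedom. Over 6 libraries the block instead raised the edgeR adjusted p, for Pkm from 0.404 to 0.966 and for Pgam1 from 0.103 to 0.666.

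Coordinates and exon overlaps are from GENCODE M21 (mm10). Transcript ends were compared in 50-base stretches on both strands. Promoters are from RefSeq (GRCm38.p6), first start per gene. Described in full were genes past the threshold, at an unadjusted p under 0.05, or with non-overlapping groups whose higher genotype averaged 10 CPM or more, and the most abundant gene of each step. Members, lists, motifs and settings were chosen with earlier results of these data known. The sum of the enolase rows was added after seeing the data.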

Additional observations from a re-analysis of the deposited data

How the results depend on the processing

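The count of glycolysis and pyruvate genes past the threshold was 0 with 6 libraries, and also with RLE factors, DESeq2, limma-voom, the stricter filter, without the rows Rn45s, Rn4.5s and Lars2, and with the replicate block. It was 1 with library totals alone, 2 with no filter, 1 in batches 2 and 3 alone, 7 there with the block, and 0 to 1 when leaving out each library (1, Pgam1, without WT replicate 2 or WT replicate 3). Over all genes 5 passed (263 at an unadjusted p under 0.05), against 29 in DESeq2, 9 with library totals alone, 20 in limma-voom, 48 with no filter, 0 with the replicate block (296 at an unadjusted p under 0.05), 0 with the stricter filter (255 at an unadjusted p under 0.05), 27 in batches 2 and 3 alone, 324 there with the block, and 0 to 13 when leaving out each library. The replicate block ended no call among the glycolysis and pyruvate genes, as none was made. The number of these genes with a positive log2 fold change and their median kept within 17 to 21 and 0.41 to 0.78 when leaving out each library. Of 21 tested genes given with fold changes, 16 kept their sign in every setting run. Pdha1 turned from -0.03 to 0.02 with library totals alone, 0.05 with the stricter filter, 0.98 in batches 2 and 3 alone and 0.89 there with the block, and ranged from -1.13 to 0.55 when leaving out each library, while it was -0.81 with the replicate block and -3.25 in limma-voom. Pdhb (0.47) was -0.77 with the replicate block and -2.67 in limma-voom, with a range of -0.30 to 1.06 when leaving out each library. Slc16a3 (-0.18) was -0.75 with the block over 6 libraries and -3.44 in limma-voom, but 0.87 and 0.85, and Mpc2 -0.16 and -0.16 in those fits without batch 1, with ranges of -0.83 to 0.41 and -0.02 to 1.44 when leaving out each library. Hk2 ranged from -0.07 to 0.78. The cause of these changes was not tested. The median log2 fold change of all genes was -0.13, against 0.05 with library totals alone, -0.48 with the replicate block, -0.65 in limma-voom and -0.38 to 0.06 when leaving out each library; that of the tested glycolysis and pyruvate genes was 0.55, against 0.80, 0.51 and 0.43 in those first 3 settings. Genes at or near 0 counts in batch 1 libraries limit what these fits can show. Those libraries had the highest totals, 8472907 counts in Sdha-KO replicate 1 and 8239600 in WT replicate 1.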
